A study of Homo sapiens with 4 samples.

Results

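The first intron is the stretch of transcribed DNA between the first and the second exon of a gene. Of the 25514 H4K20me1 peaks in the deposited table, 3773 were annotated to an intron numbered 1 of its transcript, and 2906 of them were kept here. The other 867 lay on chromosome segments that were left out by the rule of selection: all of chromosome 6, chromosome 2 below 90 Mb, chromosome 9 above 40 Mb, chromosome 17 above 25 Mb, chromosome 5 below 45 Mb and chromosome 8 above 92 Mb. The rule itself uses annotation and position only, but it was set with earlier results of these data known. The annotation gives promoters, up to 3 kb from a transcription start, precedence over introns, so every member lay more than 3 kb from the nearest annotated start.

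The cells were Kasumi-1, an acute myeloid leukemia line with the t(8;21) translocation, which fuses RUNX1 to RUNX1T1. Both groups came from this 1 line: 2 libraries carried the non-targeting guide sgNT and the genotype label WT, and 2 carried sgSETD8, with SETD8 knocked out by CRISPR/Cas9. Each library was made from 100000 cells, and the labels name neither clones nor separate cultures. CUT&Tag uses an antibody to bring the Tn5 transposase to chromatin with the mark and sequences what it cuts. The table holds 1 value per group and not per library. No header says which group stands first. Going by the comparison's name, treated over control, the knockout should stand first, yet this is not stated in the table, so the terms first-listed and second-listed are used throughout. With 1 value per group no difference below has a replicate check, and no test could be made. Intervals are exact Clopper-Pearson 95% intervals on recovered reads and cover counting error only.

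H4K20me1 is histone H4 with a single methyl group on lysine 20. SETD8, now called KMT5A, places it, and SUV420 enzymes can add further methyl groups. The enzyme is known for its part in the cell cycle and chromosome compaction, and the mark is also known to lie along the bodies of transcribed genes. First introns are often long and often hold enhancers and alternative transcription starts.

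The stretches of DNA first shown are starts that RefSeq places inside first-intron peaks, because they are the peak sequences that could be read here. Of the RefSeq windows of 300 bases, which run from 250 before to 50 after a start, 17 touched a first-intron peak and 11 lay wholly inside one, in 10 peaks. Of those 11, 3 were a start of the host gene itself. These 3, and 1 start of an uncharacterized transcript within PACSIN2, a gene of membrane curvature and endocytosis, are printed 5′ to 3′ on the strand of the gene, with CpG dinucleotides in capitals. All are from RefSeq on GRCh38.p14, at chr3:45985633-45985932 (FYCO1, minus strand), chr3:46987740-46988039 (NBEAL2, plus strand), chr14:68937902-68938201 (ACTN1, minus strand) and chr22:42937456-42937755 (LOC124905128 in PACSIN2, plus strand).
FYCO1: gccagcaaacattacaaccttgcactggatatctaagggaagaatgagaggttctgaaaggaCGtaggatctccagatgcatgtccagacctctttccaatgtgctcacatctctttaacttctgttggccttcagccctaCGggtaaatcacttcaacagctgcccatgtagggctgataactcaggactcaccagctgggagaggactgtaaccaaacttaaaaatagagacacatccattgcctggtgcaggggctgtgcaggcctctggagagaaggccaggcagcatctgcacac
NBEAL2: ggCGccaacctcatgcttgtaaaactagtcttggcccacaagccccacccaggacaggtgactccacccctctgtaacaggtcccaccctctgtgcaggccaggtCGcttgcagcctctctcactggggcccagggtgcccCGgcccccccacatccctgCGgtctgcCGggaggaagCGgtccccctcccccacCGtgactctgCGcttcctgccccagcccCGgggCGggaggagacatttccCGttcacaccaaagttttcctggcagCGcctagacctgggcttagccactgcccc
ACTN1: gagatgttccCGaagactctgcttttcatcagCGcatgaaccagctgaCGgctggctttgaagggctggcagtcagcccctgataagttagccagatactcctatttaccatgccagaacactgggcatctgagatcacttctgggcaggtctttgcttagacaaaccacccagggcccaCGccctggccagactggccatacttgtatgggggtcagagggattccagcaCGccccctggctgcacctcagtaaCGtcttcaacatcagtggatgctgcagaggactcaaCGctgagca
PACSIN2: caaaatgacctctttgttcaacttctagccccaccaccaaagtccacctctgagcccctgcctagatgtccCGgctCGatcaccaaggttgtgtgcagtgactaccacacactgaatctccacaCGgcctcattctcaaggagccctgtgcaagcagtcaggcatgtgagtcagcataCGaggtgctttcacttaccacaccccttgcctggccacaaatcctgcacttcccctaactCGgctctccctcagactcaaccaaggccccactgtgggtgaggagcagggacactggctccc
They hold 2, 12, 7 and 5 CpGs. Over the number that their C and G content would give, that is a ratio of 0.107, 0.385, 0.306 and 0.228. The FYCO1 peak held 114 first-listed and 113 second-listed reads (reads are given in this order throughout), and the NBEAL2 peak held 88 and 89. The ACTN1 peak held 57 and 67 reads. In the PACSIN2 peak the reads were 446 and 326, a log2 fold change (first-listed minus second-listed, as in all that follows) of 0.51 with an interval of 0.30 to 0.72. The 3 alternative starts of host genes were thus covered about equally in both groups, and the PACSIN2 peak was higher in the first-listed group. Of the peaks with a whole window not shown, that of LOC105373071 was lower (45 and 81 reads, −0.79, interval −1.35 to −0.25). The peak in SBNO2 was higher (458 and 406 reads, 0.23, interval 0.03 to 0.43). The intervals of the remaining ones included no difference.

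For contrast, 4 host genes that are named below by size or depth had a RefSeq promoter inside a promoter peak of their own, upstream of the member. The 3 shown, in the same way, are DNMT1 (chr19:10194904-10195203, minus strand), FNDC3B (chr3:172040281-172040580, plus strand) and RBPJ (chr4:26320764-26321063, plus strand).
DNMT1: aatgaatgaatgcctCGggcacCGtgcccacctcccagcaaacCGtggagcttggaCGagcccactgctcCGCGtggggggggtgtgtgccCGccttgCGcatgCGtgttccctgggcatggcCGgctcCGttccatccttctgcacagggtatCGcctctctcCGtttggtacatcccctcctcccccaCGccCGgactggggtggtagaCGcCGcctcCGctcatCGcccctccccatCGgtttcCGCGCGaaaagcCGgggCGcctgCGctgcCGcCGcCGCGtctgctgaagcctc
FNDC3B: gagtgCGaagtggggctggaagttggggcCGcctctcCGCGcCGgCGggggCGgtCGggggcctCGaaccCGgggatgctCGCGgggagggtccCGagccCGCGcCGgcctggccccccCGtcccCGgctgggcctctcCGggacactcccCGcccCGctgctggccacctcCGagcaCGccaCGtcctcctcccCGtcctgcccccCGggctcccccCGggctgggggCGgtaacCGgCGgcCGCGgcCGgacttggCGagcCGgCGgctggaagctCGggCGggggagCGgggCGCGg
RBPJ: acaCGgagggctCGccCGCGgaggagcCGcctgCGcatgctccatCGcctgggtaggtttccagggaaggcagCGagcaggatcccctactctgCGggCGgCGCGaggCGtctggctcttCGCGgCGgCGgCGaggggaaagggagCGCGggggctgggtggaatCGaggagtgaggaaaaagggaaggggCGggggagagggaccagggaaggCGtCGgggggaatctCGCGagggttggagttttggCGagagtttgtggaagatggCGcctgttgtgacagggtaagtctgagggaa
These promoters hold 30, 41 and 28 CpGs, at ratios of 0.874, 0.827 and 0.982. The contrast between intronic starts and main promoters is a description of the windows shown, with no test. A RefSeq promoter was found for 1077 of 1316 protein-coding host genes (81.8%). Their median GC content was 68.3%, against 65.3% in 874 genes with peaks in later introns only and 62.7% in all 15843 protein-coding promoters. A CpG ratio of at least 0.6 was reached by 82.1%, 76.3% and 65.8% of these sets.

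In the same windows 6 short motifs were searched on both strands. The RUNX motif TGTGGT occurred in 8.17% of host promoters and in 10.8% of all protein-coding promoters. The GATA factor motif, spelled AGATAA, occurred in 5.11% and 7.57%, AP-1 (TGANTCA) in 4.46% and 5.75%, and ETS (AGGAAGT) in 7.52% and 8.07%. The box spelled CCAAT occurred in 31.6% and 36.4%, and the E-box (CAGNTG) in 40.9% and 47.0%. Each share was lower in the host promoters than in all protein-coding promoters, and the host promoters are also richer in GC. In genes with peaks in later introns only, RUNX occurred in 8.24%, GATA in 6.64% and AP-1 in 3.66%. ETS occurred there in 8.01%, CCAAT in 35.8% and the E-box in 45.3%. No more than this is read from the matches.

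The 2906 peaks covered 3.39 Mb, with widths from 282 to 4771 bases and a median of 1029. Their reads summed to 386421 (first-listed) and 345794 (second-listed). A peak held a median of 92 reads in the first-listed group (quartiles 53 and 161) and 82 in the second-listed (52 and 143). A host gene number was given for 2652 peaks, in 1410 genes, and 254 peaks named only a transcript. The host was also the gene with the nearest start for 2354 peaks, and for 298 another gene's start was nearer. The median distance to the nearest start was 13.7 kb. In 37 peaks both groups stood at the lowest step of the table.

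First-intron peaks were higher in the first-listed group more often than lower. The log2 fold change had a median of 0.18, with quartiles of −0.07 and 0.43, and 68.9% of the peaks lay above 0. A peak with the same reads in both groups stands at 0.06 by the scaling of the columns. It therefore counts as above 0, as do the 37 at the lowest step. Over all 25514 peaks the median was 0.06, with 58.2% above 0, and outside the segments left out it was 0.09, with 61.6% above 0. The 867 first-intron peaks on those segments had a median of 0.04, with 52.7% above 0 and 46.5% below. A log2 fold change of at least 1 was found in 70 peaks (2.41%), beside 1.55% of all 25514 peaks, and one of at most −1 in 16 (0.551%), beside 0.909%. Among all peaks outside the segments left out these shares were 1.70% and 0.712%, so the low share of the members lay nearer to that of this set. By the unadjusted p-values of the authors' deposited table, with a limit of 0.05, there were 179 higher members (6.16%), beside 3.37% of all peaks, and 20 lower ones (0.688%), beside 1.69%. By the same p-values, 3.56% of all peaks outside the segments left out were higher and 1.17% lower. No member had an adjusted p under 0.05 in that table, where the smallest was 0.433, so no member passed the test. When both groups were scaled to equal reads in peaks, every log2 fold change dropped by 0.11. The median of the members was then 0.07, 57.2% lay above 0, and 35 peaks reached 1 while 22 reached −1. Over all 25514 peaks so scaled, 44.7% lay above 0, 190 reached 1 and 409 reached −1.

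The members high by that unadjusted p were spread over many genes. They fell in 140 numbered host genes, of which 17 held 2 or more, and those that were low fell in 14 genes with 1 each. No gene held members on both sides of that limit. Of the 1410 host genes 853 held 1 first-intron peak and could not, so nothing is read from this. Peaks with a protein-coding host had a median of 0.19 (2533 peaks), those with a long noncoding RNA host −0.02 (109 peaks), and those without a gene number 0.06.

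Compared with other classes of peaks outside the same segments, the median in first introns was the highest. It was 0.13 in 1594 promoter peaks 1 to 3 kb from a start, 0.12 in 715 exon peaks, 0.11 in 5456 promoter peaks within 1 kb, 0.09 in 4129 later-intron peaks and 0.03 in 3977 distal intergenic peaks. The share at an unadjusted p under 0.05 and higher was 3.51% in later introns, 2.93% in promoters within 1 kb and 1.99% in distal intergenic peaks. The SD of single peaks in first introns was 0.42. The differences between class medians come from 1 value per group and were not tested. At the inner edge of the class, 196 members 3 to 4 kb from a start had a median of 0.23, and just outside it 720 promoter peaks 2 to 3 kb from a start had 0.13.

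**Figure D1:**
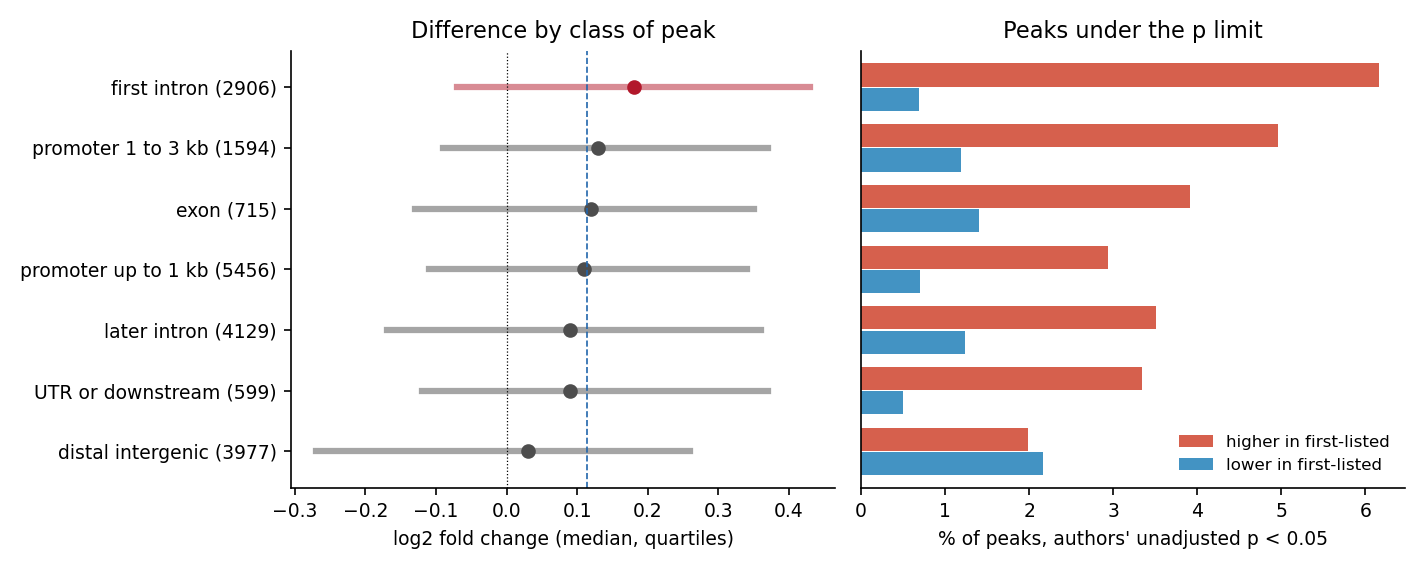
Log2 fold change (first-listed minus second-listed) for each class of H4K20me1 peaks outside the segments left out (left, point for the median, bar for the quartiles, number of peaks in brackets), and percent of peaks under 0.05 by the unadjusted p-values of the authors' deposited table (right). First-intron peaks have the highest median, 0.18, and the dashed line at 0.11 is where 0 falls when both groups are scaled to equal reads in peaks.

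Signal strength differed between the classes, and the fold change moved with it. Among first-intron peaks the medians over quintiles of their mean signal, from weak to strong, were 0.06, 0.12, 0.23, 0.22 and 0.24. In later introns the same signal ranges gave 0.06, 0.03, 0.10, 0.19 and 0.24, so that the strongest peaks of both classes had the same median. In promoters within 1 kb they gave 0.06, 0.08, 0.10, 0.15 and 0.16. Of the members, 1723 stood at or above the median signal of all peaks. Their median was 0.23, and 7.08% were higher at an unadjusted p under 0.05, against 5.09% of later-intron and 2.73% of near-promoter peaks of such signal. Averaged within quintiles, first introns stood 0.05 above later introns, 0.06 above near promoters and 0.14 above distal intergenic peaks.

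Distance from the start also went with the fold change. Peaks 3 to 10 kb from the nearest start had a median of 0.20 (1089 peaks), those at 10 to 20 kb 0.21 (771) and those at 20 to 50 kb 0.19 (669). At 50 to 100 kb the median was 0.06 (202 peaks), and beyond 100 kb it was −0.09 (175 peaks). Signal dropped along the same bins, from a median of 102 scaled reads to 47.2. At or above median signal the far bins still had the lowest medians, 0.18 in 67 peaks and −0.19 in 29 peaks, against 0.22, 0.27 and 0.25 nearer the start. Later introns showed a like order, from 0.14 within 10 kb to −0.05 beyond 100 kb. In the longest host genes, over 400 kb, the median was 0.03 (364 peaks), and in the 4 shorter length bins it lay between 0.19 and 0.22. What distance, length and signal each contribute was not tested.

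**Figure D2:**
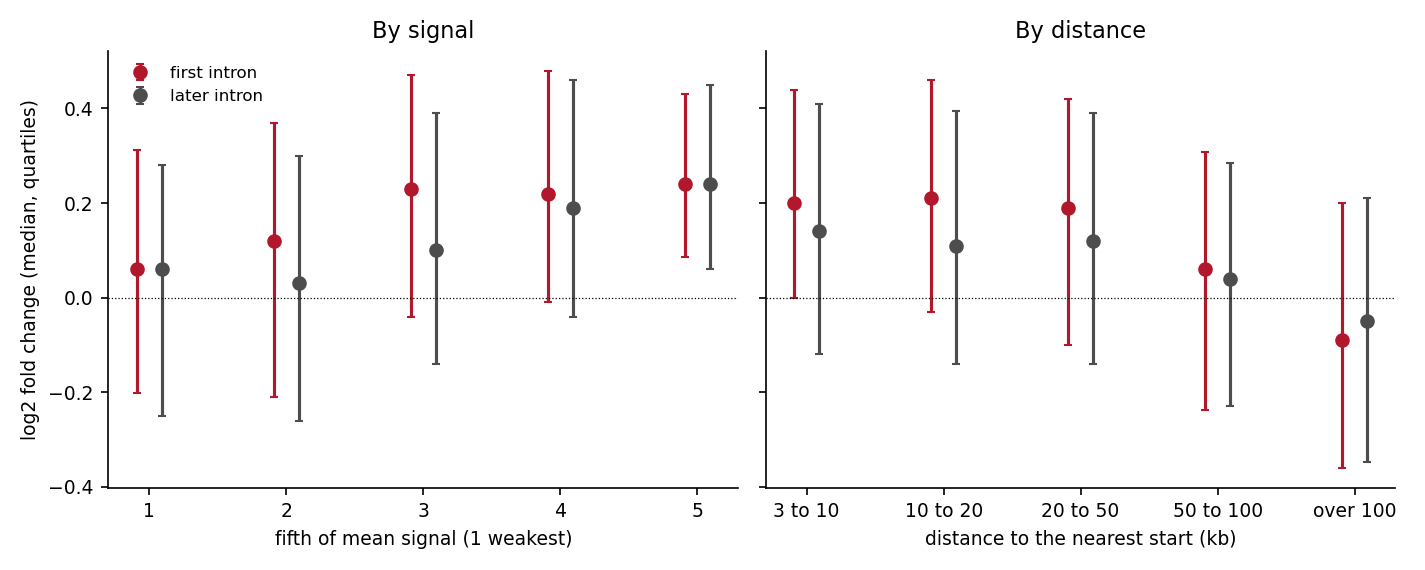
Log2 fold change (median, bars for quartiles) of first-intron and later-intron peaks by quintile of mean signal and by distance to the nearest start in kb. First-intron medians lie near 0.20 up to 50 kb and reach −0.09 beyond 100 kb.

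Ranked 1 peak per gene over members of at least their own median signal, the 10 highest log2 fold changes ran from 1.10 to 1.49. CDK17, a cyclin-dependent kinase of the PCTAIRE family, was first, at chromosome 12, 96351026 to 96352575, with 205 and 76 reads (1.49, interval 1.10 to 1.89). PLEKHM2, an adaptor that links lysosomes to kinesin, held 161 and 66 reads (1.34). ARHGAP22, a GTPase-activating protein for Rac, held 158 and 72 (1.19). In each of these 3 peaks the first-listed group held more than double the reads. The intervals lay above 0, which for peaks picked as the highest follows in part from the ranking.

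Others of the 10 were as follows. ATP8A1, a phospholipid flippase, held 124 and 57 reads (1.18), HM13, the signal peptide peptidase, 121 and 56 (1.17), and CLINT1, a clathrin adaptor, 172 and 83 (1.11). SARAF, a regulator of store-operated calcium entry, was the deepest of them with 340 and 162 reads (1.12, interval 0.85 to 1.41). RYBP, a subunit of Polycomb repressive complex 1, held 186 and 90 (1.10), and KIAA0513 held 155 and 75 (1.10). The smallest unadjusted p of the 10 in the authors' deposited table was 0.000197, for CDK17, with an adjusted p of 0.46.

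At the other end the differences were smaller. ZNRF2, a membrane-bound ubiquitin ligase, was the lowest, at chromosome 7, 30322318 to 30323107, with 60 and 127 reads (−1.02, interval −1.49 to −0.57). The next 9 ran from −0.71 to −0.54. TSHZ1, a zinc-finger transcription factor, held 66 and 112 reads (−0.71). DNMT1, the maintenance DNA methyltransferase, held 125 and 209 (−0.68, interval −1.02 to −0.36). Chromatin and nuclear structure genes among the 10 were LMNB1, which encodes lamin B1, with 184 and 283 reads (−0.58), and the remodeller CHD7 with 118 and 181 (−0.56).

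Of the others, XKR6 held 73 and 119 reads (−0.65) and LSAMP, a neuronal adhesion protein, 72 and 117 (−0.64). PPP4R3A, a regulatory subunit of protein phosphatase 4, held 111 and 176 (−0.61), CNOT6, a deadenylase of the CCR4-NOT complex, 77 and 122 (−0.61), and the retinaldehyde reductase DHRS3 95 and 144 (−0.54). All 10 intervals lay below 0, which for peaks picked as the lowest follows in part from the ranking. The smallest unadjusted p among them in the authors' deposited table was 0.0133, for ZNRF2. The rest ran from 0.0726 (DNMT1) to 0.172 (DHRS3) in that table, so only ZNRF2 was under 0.05.

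The deepest member was in KIT, the receptor of stem cell factor, at chromosome 4, 54666939 to 54671362, with 1418 and 1570 reads. Its log2 fold change was −0.09 (interval −0.19 to 0.01). FNDC3B held 1314 and 1080 reads (0.34, interval 0.22 to 0.46) and FBRSL1 1226 and 1015 (0.33, 0.21 to 0.45). RBPJ, the DNA-binding factor of Notch signalling, held 1160 and 1095 (0.13), and ZMIZ1, a PIAS-like coactivator, 1060 and 960 (0.20). Counting intervals were narrow at this depth, and the 5 deepest peaks lay between −0.09 and 0.34.

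**Figure D3:**
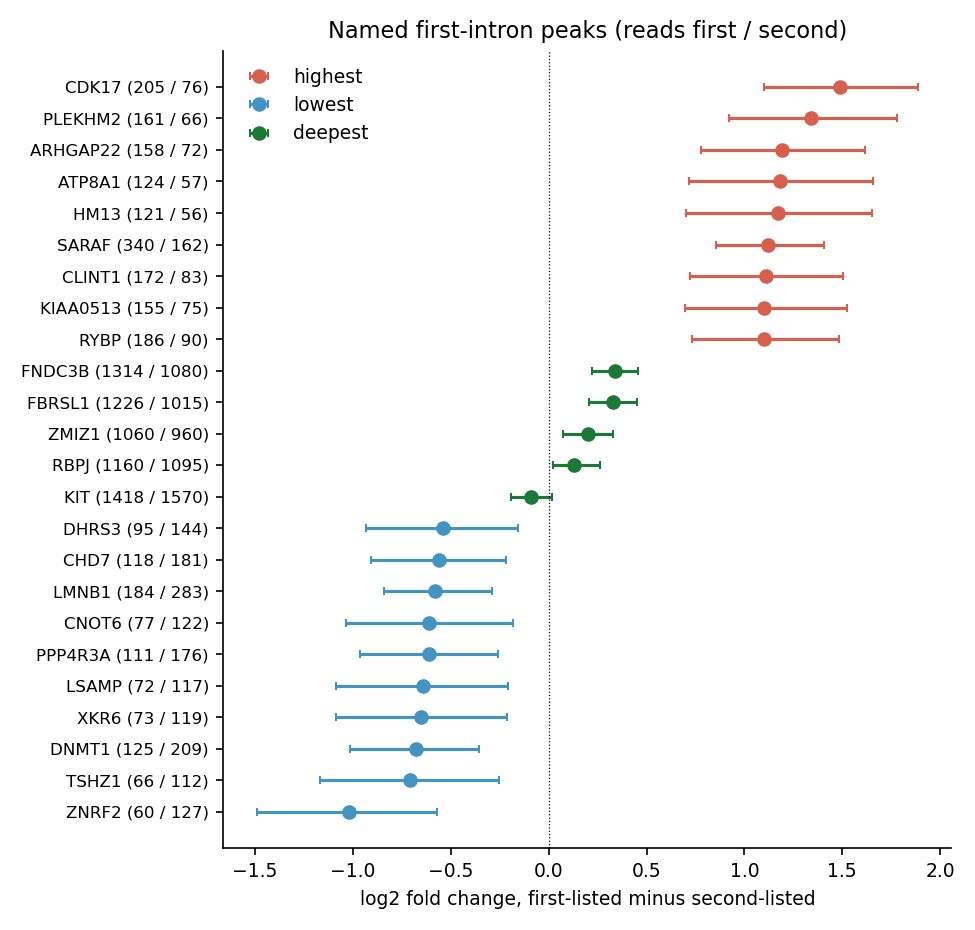
Log2 fold change (first-listed minus second-listed) with exact 95% counting intervals for 9 of the 10 highest, the 10 lowest and the 5 deepest first-intron peaks, 1 per gene. The highest run from 1.10 to 1.49, the lowest from −1.02 to −0.54, and the deepest stay between −0.09 and 0.34.

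Several of these genes held more than 1 first-intron peak. All 6 peaks of CDK17 lay above 0, from 0.15 to 1.49, and summed to 1148 and 618 reads (0.95, interval 0.81 to 1.09). The 7 peaks of RYBP summed to 1354 and 890 reads (0.66). CHD7 was not low throughout: its 6 peaks ran from −0.56 to 0.27 and summed to 935 and 974 reads (−0.002). CNOT6 likewise had 1 peak at −0.61 and 2 at 0.12. The 5 peaks of XKR6 ran from −0.65 to 0.63 and summed to 479 and 503 reads (−0.01). TSHZ1 had 2 peaks, at −0.71 and 0.02. On the high side, ATP8A1 had 2 peaks, at 1.18 and 0.03. The 6 KIT peaks ran from −0.41 to 0.19, 5 of them below 0, and summed to 3847 and 4128 reads (−0.04, interval −0.11 to 0.02).

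Over all hosts, 853 genes held 1 first-intron peak, 270 held 2, 269 held 3 to 7 and 18 held 8 or more. In the 287 genes with at least 3, every peak lay above 0 in 99, every peak below 0 in 12, and 176 had peaks on both sides or at 0. With equal reads in peaks, 61 genes had every peak above 0 and 24 every peak below. The SD of the log2 fold change within genes was 0.33, against 0.39 over the same 1799 peaks. Counting error averaged over these peaks gave an SD of 0.31 if reads are independent and 0.43 if they come in pairs. Peaks with the fewest reads weigh most in that average. How much of the spread within genes is counting error was not tested.

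The genes with the most members were DLGAP1, a postsynaptic scaffold protein, and NTM, a neural adhesion protein, with 14 each. Their peaks ran from −0.73 to 0.74 and from −1.75 to 0.68, and the NTM peak at −1.75 held only 4 and 14 reads. DYRK1A, a kinase encoded on chromosome 21, had 13 peaks from −0.45 to 0.60 that summed to 2091 and 2187 reads (−0.01). JMJD1C, a Jumonji-domain protein and partner of the RUNX1 fusion, had 11 peaks that summed to 1542 and 1314 reads (0.29, interval 0.18 to 0.40). In TNRC6B, a protein of the microRNA silencing complex, and in FNDC3B all 10 peaks lay above 0, and they summed to 0.43 and 0.36. FGF14 also had 10, of which 6 lay below 0.

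**Figure D4:**
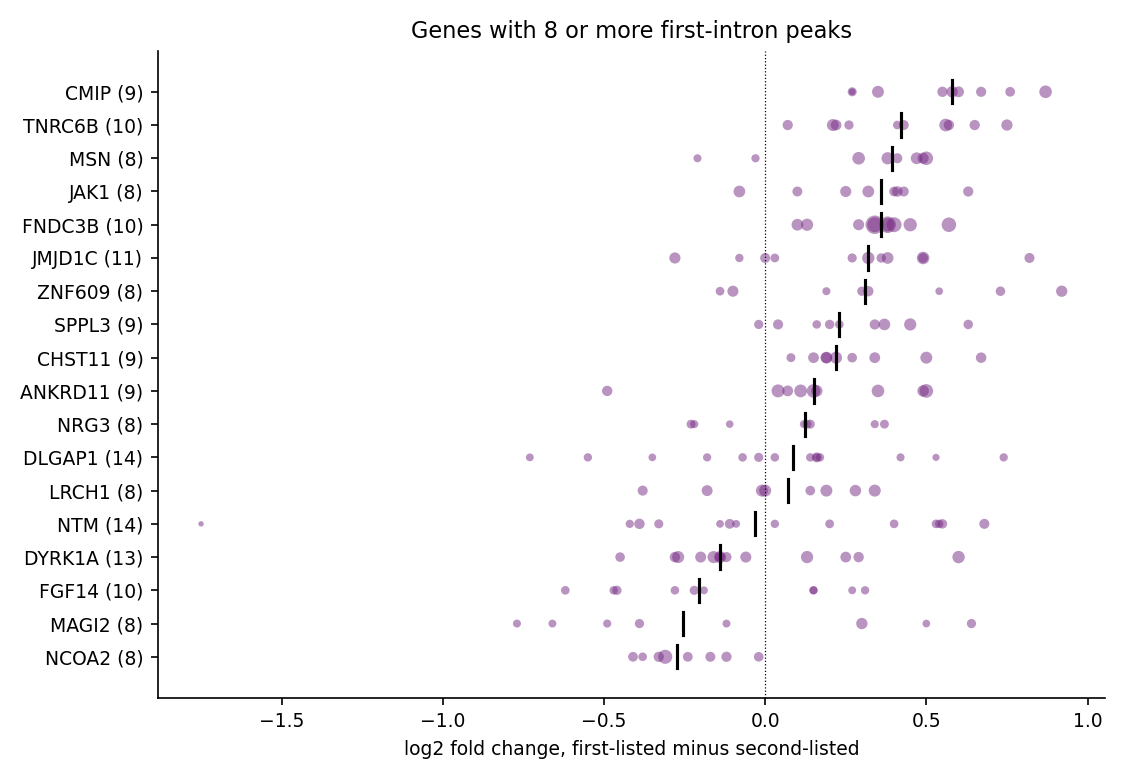
Log2 fold change of every first-intron peak in the 18 host genes with 8 or more (number in brackets), with larger points for stronger signal and a tick at the median. Peaks of TNRC6B, FNDC3B, CMIP and CHST11 all lie above 0, and the 8 peaks of NCOA2 all lie below 0.

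Chosen after their values were seen, CMIP and NCOA2 were opposite cases. The 9 peaks of CMIP ran from 0.27 to 0.87 and summed to 1420 and 976 reads (0.60, interval 0.48 to 0.72). The 8 peaks of NCOA2, a nuclear receptor coactivator, ran from −0.41 to −0.02 and summed to 962 and 1198 reads (−0.26, interval −0.38 to −0.14). Likewise chosen, ABHD17C, a depalmitoylating enzyme, held 4 peaks from 0.78 to 1.06 (620 and 344 reads), and each had a p under 0.05 before adjustment in the authors' deposited table. DENND5A, an exchange factor for Rab GTPases, held 6 peaks from 0.37 to 0.90 with 2283 and 1473 reads. MAP3K1, a kinase upstream of JNK, held 3 peaks from −0.37 to −0.21 with 389 and 503 reads.

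Where a gene had a peak both in its first intron and within 1 kb of a start, the intron was the higher of the pair more often. Over 781 such genes the median of gene means was 0.21 in the first intron and 0.13 at the promoter. The difference within a gene had a median of 0.10, with quartiles of −0.14 and 0.32, and was above 0 in 465 genes and below in 308. Both lay on the same side of 0 in 517 genes. Across genes, which share both libraries and are not replicates, Pearson's r was 0.25. Over 517 genes with a peak in a later intron too, the medians were 0.15 in the first and 0.12 in later introns, and the median difference was 0.03.

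Single genes differed in how far intron and promoter went together. At CDK17 the promoter peak held 372 and 330 reads (0.23), below its first-intron mean of 0.95 and its later-intron mean of 0.59. At SARAF the promoter peak held 163 and 176 reads (−0.05), and at HM13 126 and 135 (−0.04), although the first-intron peaks of both stood above 1. RYBP was high at the promoter as well (208 and 148 reads, 0.55). The 4 promoter peaks of DNMT1 were all below 0, at −0.55, −0.40, −0.30 and −0.08, and that of LSAMP was at −0.73. The promoter peak of KIT held 1938 and 2283 reads (−0.18, interval −0.27 to −0.09).

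**Figure D5:**
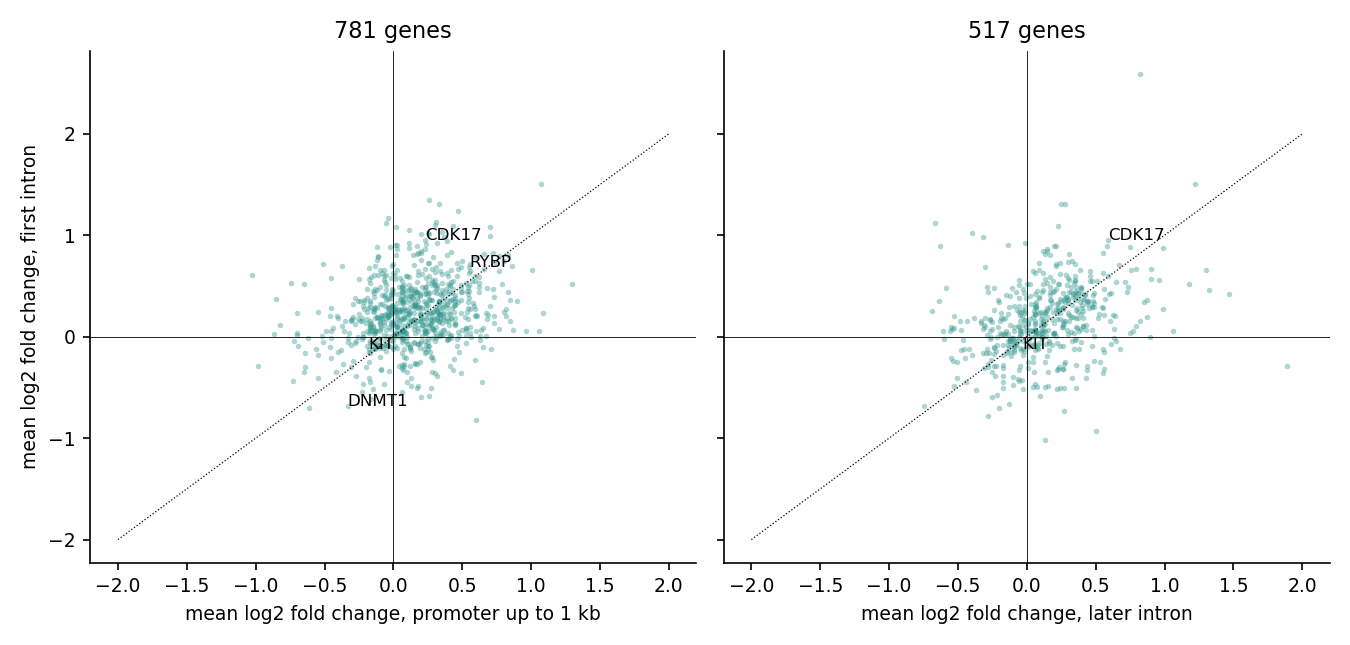
Mean log2 fold change over first-intron peaks of a gene against that over its peaks within 1 kb of a start (781 genes) and in later introns (517 genes), 1 point per gene. The clouds are broad, with Pearson's r of 0.25 and 0.31, and CDK17 lies above the dotted line of equal values in both panels.

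Of the 17 gene lists, 14 had at least 1 gene with a member. The lists described are given by their genes with members and the median of the gene means, beside a median of 0.18 over all 1410 host genes, of which 1026 lay above 0 and 378 below. Among factors and partners of the t(8;21) fusion, 8 of 27 genes had members, 7 above 0 and 1 below, with a median of 0.26. ERG, an ETS factor of stem cells, held 246 and 173 reads (0.56), and the highest JMJD1C peak 131 and 77 (0.82). FLI1, another ETS factor, had 5 peaks with 2275 and 2037 reads, and the corepressor SIN3A 1 peak with 94 and 119 (−0.28).

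Stem cell and leukemia genes had members in 11 of 46 genes, with a median of 0.16, 7 above 0 and 4 below. CD44, the hyaluronan receptor, held 955 and 629 reads in its highest peak (0.67, interval 0.51 to 0.81), and PTPN11, the phosphatase SHP2, 202 and 138 in the higher of 2 (0.61). MECOM, which encodes the stem cell factor EVI1, had 5 peaks with 366 and 462 reads, and IKZF1, a lymphoid zinc-finger factor, 1 with 195 and 254 (−0.31). Receptor tyrosine kinase and RAS signalling had members in 14 of 46 genes (11 above 0 and 3 below, median 0.20). The highest peaks of at least the members' median signal there were in BRAF (0.68, 187 and 122 reads) and JAK1 (0.63, 135 and 91 reads), while RASAL2, a RAS GTPase-activating protein, had 2 weaker peaks at 0.80 and 0.83 (118 and 70 reads together).

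Ubiquitin ligases had members in 14 of 36 genes, 12 above 0 and 2 below, with a median of 0.26. The highest peaks of at least the members' median signal there were in SMURF1 and CUL3. SMURF1, a ligase of the BMP pathway, held 228 and 139 reads in the highest of its 3 peaks (0.76) and CUL3, a cullin scaffold, 113 and 79 (0.57). Weaker peaks stood higher in ZNRF3 (108 and 44 reads, 1.35) and CBL (0.83 in the higher of 2). Coactivators and remodellers had members in 10 of 40 genes (7 above 0, 3 below, median 0.08). With equal reads in peaks 4 of the 10 lay above 0. MED13L of the Mediator kinase module stood at 0.83 in its highest peak (185 and 108 reads). The methyltransferase KMT2C stood at 0.70 in 1 of 5 peaks from −0.34 to 1.16 (172 and 110 reads). The 3 below 0 were NCOA2 (mean −0.25), EZH2 (−0.10) and CHD7 (mean −0.04).

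As a reference for shares, 1077 of the 15843 protein-coding genes with a RefSeq promoter hosted a member. Of 48 genes of mitochondrial dynamics, biogenesis and mitophagy, 7 had members, 5 above 0 and 2 below, with a median of 0.06. Of those above 0, MFN2 (68 and 68 reads), PPARGC1A (53 and 53) and MICOS10 (136 and 136 in 2 peaks) held the same reads in both groups. The scaling of the columns alone puts such genes near 0.06. With equal reads in peaks 2 of the 7 lay above 0, beside 829 of all 1410 host genes. PPARGC1B, a coactivator of mitochondrial genes, held 126 and 103 reads in the higher of its 2 peaks (0.35), and MCU, the mitochondrial calcium uniporter, had 3 peaks from 0.07 to 1.06 (410 and 344 reads). None of 68 oxidative phosphorylation genes had a member. Among 23 genes that write, erase, read or degrade H4K20 methylation, 2 had one: DTL, the receptor of the ubiquitin ligase that degrades SETD8, with 89 and 120 reads (−0.37), and FZR1, an activator of the anaphase-promoting complex, with 568 and 551 (0.10). DTL was also the only gene of 43 in DNA replication. Cell cycle genes had members in 2 of 43, KIF11 (132 and 132 reads, 0.06) and E2F2 (207 and 218, −0.02), and p53 targets in 1 of 27.

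No gene of 38 in myeloid differentiation, the lineage of the line, had a member. Among markers of other cell types, none of 15 liver markers had one. At the reference share of 1077 in 15843, lists of these sizes would hold few host genes, so nothing is read from either absence. Neuronal markers had 6 of 26, with 27 peaks, with a median of −0.04, 3 above 0 and 3 below. Of these, NRG1, a growth factor, held 130 and 88 reads in its highest peak (0.62) and DLG2, a synaptic scaffold, 75 and 109 in its lowest (−0.48). Erythroid markers had 2 of 21, with GYPC, which encodes glycophorin C, at 232 and 181 reads in the highest of its 3 peaks (0.42). Lymphoid markers had 2 of 22, PAX5 at 242 and 172 reads (0.55) and TOX with 4 peaks from −0.42 to 0.88 (462 and 324 reads). With equal reads in peaks every list median drops by 0.11, which puts those of coactivators (−0.03), mitochondrial dynamics (−0.05), p53 targets (−0.05) and cell cycle genes (−0.09) below 0.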

How the data were processed

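H4K20me1 CUT&Tag was deposited as 1 table of 25514 peaks. Tools named in the submitters' processing notes were cutadapt, Bowtie2 and DESeq, with build hg38. Not given in the sources used here are versions, order, peak caller, duplicate removal and the libraries behind each column. For each peak the authors deposited scaled reads per group, their mean and their fold change, all as log2 values, and a p-value before and after adjustment. Value columns are named only by number, and their meaning was taken from the values. Low log2 values (1.5 to 5.5) equal log2 of a whole number plus a constant per column (0 and −0.057), within 0.0051, which gave the reads. At high values the rounding of the deposited log2 values spans several whole numbers, so large read counts and sums of reads are approximate. If both ends of a fragment were counted, intervals are too narrow. Without an antibody-free control or a spike-in among the data used, a uniform loss of the mark could not be seen.

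Members and lists were chosen with earlier results of these data known. Symbols, promoters and gene lengths came from RefSeq GRCh38.p14, which held 1408 of 1410 host genes. Named are the 10 highest, 10 lowest and 5 deepest members at or above the members' median signal, 1 per gene and without uncharacterized, small RNA or antisense genes, the hosts with most peaks (7 with ties), and up to 2 per list. A gene and a list that these rules name are not reported here. The calculations were tested on simulated data. Alternatives covered thresholds, signal, scaling, segments, host assignment and, chosen after seeing the data, signal quintiles and host type. Python 3.11.15, numpy 2.4.6, pandas 2.3.3, scipy 1.17.1 and matplotlib 3.10.9 were used.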

Additional observations from a re-analysis of the deposited data

How the results depend on the processing

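None of the medians and class or distance differences in this paragraph changed sign under the alternatives run, but several changed in size, as did the counts. Medians of 4 gene lists, given in the report, do go below 0 with equal reads in peaks. The 86 peaks past a log2 fold change of 1 in size became 495 at a 1.5-fold limit, 35 at or above the median signal of all peaks and 57 with equal reads in peaks. By the authors' deposited table, the 199 peaks under 0.05 before adjustment became 48 at 0.01 and 126 at or above median signal. The median of 0.18 became 0.066 with equal reads, 0.12 without scaling, 0.23 at or above median signal and 0.15 with the segments kept. The difference from later introns, 0.09, became 0.05 at or above median signal, 0.032 in genes with both and 0.05 within signal quintiles. That from distal intergenic peaks, 0.15, became 0.21 at or above median signal. The difference between peaks within 10 kb and those 50 kb or more from a start, 0.22, became 0.14 where the host is the nearest gene, 0.12 at or above median signal (96 far peaks) and 0.14 for protein-coding hosts. Scaling shifts every value by the same amount by construction, and stricter limits leave fewer peaks; for the other shifts the cause was not tested. No paired analysis was possible because each group has 1 column that carries no replicate number, and for the same reason no library could be left out. Depth limits single peaks: the extremes included CASTOR2 with 15 and 1 reads (3.96, interval 1.26 to 9.36) and SNTG2 on an alternative contig with 1 and 6 reads (−2.53, −8.05 to 0.52).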

Other observations

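Some of the widest gaps lay in first introns of transcripts without a gene number, which the naming rule passes over; they were chosen after their values were seen. In 1 such transcript, with its nearest start in GAB2, a docking protein of receptor signalling, 5 peaks ran from 0.61 to 1.49 with a median of 1.19. Of these, 1 peak at chromosome 11, 78384222 to 78384922, held 132 and 49 reads (1.49, interval 1.00 to 1.99). Another transcript, nearest TBL1XR1, a corepressor subunit, held 11 peaks from −0.02 to 0.46, and the deepest of them had 1351 and 1425 reads (−0.02, interval −0.13 to 0.09).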
